A study of Homo sapiens with 36 samples.

Results

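The RNAs described here are 8 noncoding RNAs that work in the nucleus or in RNA-protein machines: RN7SK, RN7SL1, RN7SL2, TERC, RMRP and RPPH1, which are short and structured, and MALAT1 and NEAT1, which are long nuclear RNAs. They were taken by name from the 21797 genes of the deposited expression table, and all 8 were listed and passed the filter on low values. Peaks of N6-methyladenosine (m6A, a methyl mark on adenosine in RNA) were taken by the same names from the authors' deposited tables of peaks that differed between 2 groups. The cells were UM-SCC-1, an established line of head and neck squamous cell carcinoma. They carried retroviral shRNAs against ALKBH5, an enzyme that removes m6A, or against RBM33, an RNA-binding protein, and had been under blasticidin (10 ug/mL) for 4 days. Each target had 2 shRNAs and a scramble control of its own, so that there were 6 groups. They are ALKBH5 Scramble with its shRNA-1 and shRNA-2, and RBM33 Scramble with its shRNA-1 and shRNA-2. All groups thus share the infection and the drug selection, and no uninfected group was analysed. The labels name one line of cells throughout.

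RNA-seq libraries of total RNA numbered 3, 2, 2, 3, 2 and 3 in the groups in that order, 15 in all, and 3 others were not analysed here. Between 4493849 and 6733017 reads fell in listed genes in each library. ALKBH5 RNA was 69.2% of its scramble level in the ALKBH5 shRNA libraries (log2 difference −0.53 ± 0.08 SE, limma adjusted p = 9.1e-05), while RBM33 RNA was 93.3% of its scramble level with RBM33 shRNAs (−0.10 ± 0.06 SE, limma adjusted p = 0.27). The latter are therefore called libraries labelled RBM33 shRNA. Of 10 markers of squamous epithelium, 5 were in the table, and PERP stood at 49.5 to 67.9 CPM while DSG3, COL17A1, ITGB4 and S100A2 did not exceed 4.01 CPM. KRT5, KRT6A, KRT14, KRT17 and TP63 were not analysed here. The 6 fibroblast markers summed to 26.5 to 33.2 CPM in libraries labelled RBM33 shRNA, below the 33.6 to 38.8 CPM of RBM33 Scramble, and to 32.9 to 40.3 CPM in the ALKBH5 set, where groups overlapped. Among them COL3A1 fell in the RBM33 set by 0.51 in log2 units (SE 0.18, limma adjusted p = 0.048), COL1A1 stood at 14.5 to 23.8 CPM over all libraries, and their part in the RBM33 results was not tested. The remaining lists were low, with the summed leukocyte markers at 1.53 to 6.16 CPM and the summed endothelial markers at no more than 5.47 CPM. The labels do not say whether replicates were cultured separately. The p-values therefore cover the spread of these libraries only, which may be technical.

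Short structured RNAs do their work as the core of a particle. 7SK RNA holds the elongation kinase P-TEFb in an inactive complex; 7SL RNA is the scaffold of the signal recognition particle, which brings ribosomes to the endoplasmic reticulum; RPPH1 and RMRP are the catalytic RNAs of RNase P and RNase MRP, which process tRNA and rRNA precursors; TERC is the template of telomerase. RNA polymerase III makes 7SK, 7SL, RPPH1 and RMRP, and RNA polymerase II makes TERC, MALAT1 and NEAT1. MALAT1 gathers in nuclear speckles beside splicing factors, and NEAT1 is the scaffold on which paraspeckles form. m6A is placed mostly on RNA polymerase II transcripts, and MALAT1 is among the noncoding RNAs best known to carry it.

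Levels are given in CPM, which are read counts scaled to the size of the library, and between genes only per kilobase of gene length. RN7SL1 had the highest median over the 15 libraries, at 46750 CPM per kilobase (range 23260 to 67200), and RN7SL2 followed at 21980 (14220 to 28300). RN7SK stood at 10510 CPM per kilobase (5625 to 14220), RMRP at 5233 (4460 to 7143) and RPPH1 at 3872 (3394 to 5878). These neighbours in the order overlapped or met in their ranges over libraries. MALAT1, at 773 CPM per kilobase (707 to 869), TERC, at 124 (102 to 223), and NEAT1, at 5.25 (3.45 to 7.25), were each separate from the next. NEAT1 was divided by its whole length of 22767 bases, although a short form of NEAT1 covers only the first part of the gene, and the table does not separate the forms. TERC was counted with 290 to 746 reads per library and NEAT1 with 486 to 1151, the lowest among the 8, and every other RNA with at least 5290.

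Several of these genes share their reads with other rows of the table. RN7SK and a second row named 7SK had equal reads in 15 of 15 libraries, as did the 2 rows named RMRP. A longer row, AL355075.4, spans RPPH1 and had equal reads in 11 of 15 libraries, and AL627171.2 spans RN7SL2. The 2 genes of 7SL are near-identical copies, and 43 related 7SL pseudogenes and 13 related 7SK pseudogenes are in the same table, so the split of 7SL reads between RN7SL1 and RN7SL2 is uncertain. RN7SL1 exceeded RN7SL2 in all 15 libraries of the CPM table, by 1.63 to 2.67 times. In the authors' deposited table of DESeq2 results for the ALKBH5 set the order was the other way round, with a mean normalised count of 71088 for RN7SL1 and 86026 for RN7SL2.

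**Figure D1:**
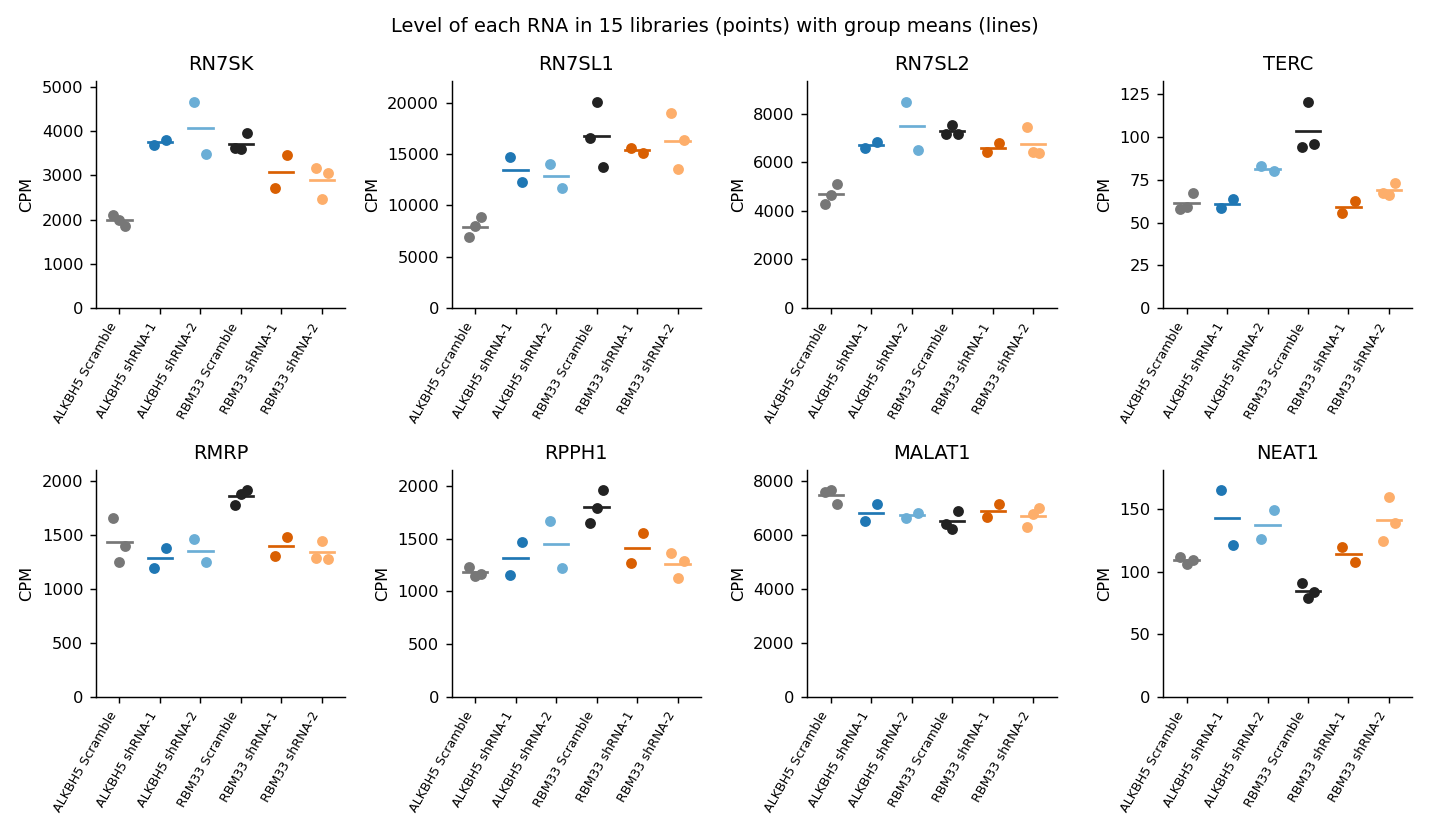
Level of the 8 RNAs in CPM (vertical axis, from 0) in the 15 libraries (points) of the 6 groups (horizontal axis), with the group means as lines. RN7SK, RN7SL1 and RN7SL2 were lowest in the ALKBH5 Scramble group, TERC, RMRP and RPPH1 had their highest group mean in RBM33 Scramble, and MALAT1 varied by 1.23 times over all libraries.

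RN7SK (ENSG00000283293, snRNA, 328 bases) lies at chr6:52995621-52995948 on the plus strand of hg38. Its level was 2097, 1999 and 1845 CPM in ALKBH5 Scramble, 3690 and 3803 CPM with ALKBH5 shRNA-1, and 4664 and 3475 CPM with ALKBH5 shRNA-2. All 4 ALKBH5 shRNA libraries lay above all 3 scramble libraries. The rise was 1.96-fold on the log2(CPM + 1) scale (log2 difference 0.97 ± 0.10 SE, limma adjusted p = 5.2e-07), the highest of the 8. It was called with each shRNA, at 0.92 ± 0.12 SE (adjusted p = 2.9e-05) and 1.03 ± 0.12 SE (adjusted p = 6.1e-06), where 8.53% and 10.1% of all genes were called. In bulk RNA, fewer cells that hold an RNA and less of it per cell cannot be told apart.

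In the other set RN7SK started higher and moved the other way. It stood at 3613, 3590 and 3946 CPM in RBM33 Scramble, 2722 and 3448 CPM in those labelled RBM33 shRNA-1, and 3163, 2456 and 3049 CPM in those labelled RBM33 shRNA-2. All 5 labelled RBM33 shRNA lay below all 3 scramble libraries. The fall was by 0.32 in log2 units (SE 0.10, limma adjusted p = 0.025). This call was lost without any 1 of 4 libraries, namely each of the RBM33 Scramble replicates 1, 2 and 3 and RBM33 shRNA-1 replicate 1, with adjusted p from 0.055 to 0.14. It was also lost without a mean-variance trend (0.12), with libraries scaled to the same median (0.052), with the trend of the values with gene length removed (0.31) and by DESeq2 on the recovered reads (0.062). By single shRNA, RN7SK did not pass with shRNA-1 (−0.28 ± 0.12 SE, limma adjusted p = 0.16). It passed with shRNA-2 (−0.37 ± 0.11 SE, adjusted p = 0.025), a call lost under the same settings. That call was also lost without RBM33 Scramble replicate 1, 2 or 3 or RBM33 shRNA-2 replicate 2 (limma adjusted p from 0.05 to 0.14). The authors' deposited edgeR and DESeq2 results called RN7SK lower with each shRNA.

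Of 7 genes listed for 7SK and P-TEFb, among them LARP7, MEPCE, CDK9 and the cyclin T genes, only HEXIM1 was called in either set, where 15.1% and 17.7% of all genes were called. HEXIM1, which binds 7SK and inhibits P-TEFb, rose by 0.70 ± 0.19 SE on the log2 scale with ALKBH5 shRNAs (limma adjusted p = 0.014) and by 0.99 ± 0.18 SE with libraries labelled RBM33 shRNA (adjusted p = 0.00047). HEXIM1 therefore rose both where RN7SK rose and where RN7SK fell, the fall being a call that several settings and single libraries left out had lost.

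Both 7SL genes rose with ALKBH5 shRNAs. RN7SL1 (ENSG00000276168, chr14:49586580-49586878, plus strand, 299 bases) stood at 6954, 7990 and 8835 CPM in ALKBH5 Scramble, 14701 and 12238 CPM with shRNA-1, and 13979 and 11734 CPM with shRNA-2. RN7SL2 (ENSG00000274012, chr14:49862550-49862849, minus strand, 300 bases) stood at 4266, 4649 and 5113 CPM, at 6594 and 6843 CPM, and at 8491 and 6513 CPM in the same groups. For both genes all 4 shRNA libraries lay above the 3 scramble libraries. RN7SL1 rose by 0.73 ± 0.13 SE on the log2 scale (limma adjusted p = 4e-04) and RN7SL2 by 0.60 ± 0.09 SE (adjusted p = 0.00012).

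The 7SL genes overlapped between groups in the RBM33 set. RN7SL1 was at 16584, 20094 and 13723 CPM in RBM33 Scramble, at 15574 and 15110 CPM in libraries labelled shRNA-1 and at 18947, 13538 and 16348 CPM in those labelled shRNA-2. RN7SL2 was at 7157, 7540 and 7165 CPM, at 6412 and 6788 CPM, and at 7448, 6434 and 6370 CPM. The log2 differences were −0.08 (95% interval −0.33 to 0.18, limma adjusted p = 0.72) for RN7SL1 and −0.13 (−0.31 to 0.06, adjusted p = 0.35) for RN7SL2. Their direction was not settled: with the trend of the values with gene length removed they stood at 0.10 and 0.05.

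Of 8 genes of the signal recognition particle and its receptor, 4 were called with ALKBH5 shRNAs, 2 in each direction. Among all genes, 15.1% were called there and 17.7% in the RBM33 set. SRP14, whose protein helps to pause translation, rose by 0.46 ± 0.11 SE on the log2 scale (limma adjusted p = 0.0063) and SRPRB, a subunit of the receptor, by 0.29 ± 0.09 SE (adjusted p = 0.028). SRP54, the subunit that binds signal peptides, fell by 0.47 (SE 0.10, adjusted p = 0.0025), and SRP72 fell by 0.21 (SE 0.06, adjusted p = 0.026). SRP54 was also the one called gene in the RBM33 set, where it fell by 0.43 (SE 0.10, adjusted p = 0.0032).

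RPPH1 (ENSG00000277209, ribozyme, 333 bases) lies at chr14:20343075-20343407 on the minus strand, and shares its promoter region with PARP2, which is read the other way. The 300 bases from RefSeq (GRCh38.p14) at chr14:20343385-20343684 are shown on the strand of RPPH1, since they reach its upstream region. The promoters of RPPH1, RMRP and RN7SK, all made by RNA polymerase III, lie upstream of the gene. Other windows were not searched for the upstream regions of RMRP and RN7SK. Capitals mark the octamer ATTTGCAT and, at the end, the first 23 bases of RPPH1.
RPPH1 upstream region: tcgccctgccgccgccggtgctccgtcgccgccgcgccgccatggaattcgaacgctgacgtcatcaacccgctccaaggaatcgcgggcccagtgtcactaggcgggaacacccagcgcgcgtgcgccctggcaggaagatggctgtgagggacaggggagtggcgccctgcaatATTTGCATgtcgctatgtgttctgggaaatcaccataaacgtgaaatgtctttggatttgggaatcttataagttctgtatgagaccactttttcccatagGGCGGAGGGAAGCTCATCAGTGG
The octamer, searched as ATGCAAAT on both strands, is held by 1.77% of 35116 RefSeq promoter windows of the same length. The string TATAAG, with its first base 34 bases before RPPH1, is held by 5.59% of them on either strand. PARP2 was not called in the ALKBH5 set (log2 difference 0.04 ± 0.08 SE, limma adjusted p = 0.80) or in the RBM33 set (0.03 ± 0.08 SE, adjusted p = 0.84).

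RPPH1 stood at 1235, 1142 and 1163 CPM in ALKBH5 Scramble, 1156 and 1470 CPM with shRNA-1, and 1668 and 1224 CPM with shRNA-2. These groups overlapped, and the log2 difference of 0.21 (95% interval 0.00 to 0.42) did not pass (limma adjusted p = 0.17). The other set had RPPH1 at 1645, 1790 and 1958 CPM in the scramble libraries, 1269 and 1549 CPM in those labelled shRNA-1, and 1362, 1130 and 1289 CPM in those labelled shRNA-2. There all 5 libraries labelled RBM33 shRNA were below the 3 scramble libraries, and RPPH1 fell by 0.43 in log2 units (SE 0.10, limma adjusted p = 0.0031). The call was lost without a mean-variance trend (adjusted p = 0.051) and with the trend of the values with gene length removed (adjusted p = 0.055). By single shRNA, RPPH1 did not pass with shRNA-1 (−0.35 ± 0.12 SE, limma adjusted p = 0.062) and passed with shRNA-2 (−0.51 ± 0.11 SE, adjusted p = 0.0023). The authors' deposited edgeR and DESeq2 results called it lower with each shRNA.

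RMRP (ENSG00000269900, 268 bases, chr9:35657751-35658018, minus strand) shares most protein partners with RPPH1. Its level was 1657, 1249 and 1402 CPM in ALKBH5 Scramble, 1195 and 1380 CPM with shRNA-1, and 1465 and 1247 CPM with shRNA-2, and these groups overlapped. It was 1776, 1884 and 1914 CPM in RBM33 Scramble, 1305 and 1485 CPM in libraries labelled shRNA-1, and 1289, 1449 and 1280 CPM in those labelled shRNA-2. All 5 of the latter lay below the 3 scramble libraries. RMRP fell by 0.44 in log2 units (SE 0.09, limma adjusted p = 0.00069) there, or by 0.25 with the trend of the values with gene length removed (adjusted p = 0.015), while the ALKBH5 set gave −0.11 (95% interval −0.30 to 0.07, adjusted p = 0.43).

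Of 11 protein genes of RNase P and RNase MRP, 4 rose and 1 fell with ALKBH5 shRNAs, beside 7.93% and 7.18% of all genes. POP4 rose by 0.66 ± 0.15 SE on the log2 scale (limma adjusted p = 0.0033), POP1, which is the largest subunit, by 0.43 ± 0.12 SE (adjusted p = 0.022) and POP7 by 0.42 ± 0.11 SE (adjusted p = 0.013). RPP14 fell by 0.52 (SE 0.11, adjusted p = 0.002). In the RBM33 set, where 17.7% of all genes were called, POP1 was the one called gene. It rose by 0.78 ± 0.12 SE (adjusted p = 5.8e-05), beside the falls of RPPH1 and RMRP.

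TERC (ENSG00000270141, 541 bases, chr3:169764520-169765060, minus strand) passed with 1 of the 2 ALKBH5 shRNAs. Its level was 57.9, 59.3 and 67.1 CPM in ALKBH5 Scramble, 58.2 and 63.8 CPM with shRNA-1, and 82.9 and 80.2 CPM with shRNA-2. The shRNA-2 libraries alone lay above the scramble libraries, as did those of 20.3% of all genes, with a log2 difference of 0.41 ± 0.11 SE (limma adjusted p = 0.022). That of shRNA-1 was −0.01 (95% interval −0.24 to 0.22, adjusted p = 0.98), and both shRNAs together gave 0.20 (0.00 to 0.39, adjusted p = 0.17). The difference between the 2 shRNAs was not tested. The call for shRNA-2 was lost without any 1 of 4 libraries, which were ALKBH5 Scramble replicates 1 and 2 and both of shRNA-2, with adjusted p from 0.065 to 0.16, and also without a mean-variance trend (0.091) and with the trend of the values with gene length removed (0.062).

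Of the 8 RNAs, TERC had the lowest log2 difference in the RBM33 set. Its 3 scramble libraries had 94.4, 121 and 95.9 CPM, against 55.3 and 62.3 CPM in those labelled shRNA-1, and 67.5, 65.8 and 73.1 CPM in those labelled shRNA-2. No library labelled RBM33 shRNA reached the lowest scramble library. TERC fell by 0.69 in log2 units (SE 0.09, limma adjusted p = 9e-06), to 62.0% of its scramble level, and was called with each shRNA, at −0.80 ± 0.11 SE (adjusted p = 4.1e-05) and −0.58 ± 0.10 SE (adjusted p = 0.00034), where 10.9% and 13.7% of all genes were called. Of 11 genes of telomerase and of telomerase RNA maturation, 2 rose in each set and none fell, a share near the 15.1% and 17.7% of all genes called. NHP2, a protein of the box H/ACA core that TERC carries, rose by 0.57 ± 0.09 SE with ALKBH5 shRNAs (adjusted p = 0.00012). TOE1, a nuclease that trims the end of TERC, rose by 0.58 ± 0.17 SE there (adjusted p = 0.021) and by 0.50 ± 0.16 SE in the RBM33 set (adjusted p = 0.035), in which SHQ1, an assembly factor of that core, rose by 0.35 ± 0.12 SE (adjusted p = 0.042).

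MALAT1 (ENSG00000251562, 8829 bases, chr11:65497688-65506516, plus strand) was the steadiest of the 8 RNAs. Its level was 7608, 7669 and 7170 CPM in ALKBH5 Scramble, 6513 and 7156 CPM with shRNA-1, and 6656 and 6828 CPM with shRNA-2. All 4 shRNA libraries lay just below the 3 scramble libraries, yet the log2 difference of −0.14 (95% interval −0.30 to 0.02) did not pass (limma adjusted p = 0.25). MALAT1 levels in RBM33 Scramble were 6426, 6239 and 6921 CPM, against 6678 and 7162 CPM in those labelled shRNA-1, and 6299, 6798 and 6999 CPM in those labelled shRNA-2. These groups overlapped, with a difference of 0.06 (−0.10 to 0.22, adjusted p = 0.63).

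NEAT1 (ENSG00000245532, 22767 bases, chr11:65422774-65445540, plus strand) was higher with the shRNAs of both sets. It stood at 112, 106 and 110 CPM in ALKBH5 Scramble, 165 and 121 CPM with shRNA-1, and 126 and 149 CPM with shRNA-2. All 4 shRNA libraries were above the 3 scramble libraries, and the rise was 0.35 ± 0.10 SE on the log2 scale (limma adjusted p = 0.019). Neither shRNA passed alone, at 0.37 ± 0.12 SE (adjusted p = 0.051) and 0.33 ± 0.12 SE (adjusted p = 0.081). The first passed under 7 other settings, among them edgeR (0.039) and DESeq2 (0.027) on the recovered reads, and both passed with only the groups compared in the fit (0.042 and 0.048). The joint call was lost without any 1 of 4 libraries, ALKBH5 Scramble replicates 2 and 3, shRNA-1 replicate 1 and shRNA-2 replicate 3, with adjusted p from 0.055 to 0.12, and without a mean-variance trend (0.099).

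The rise of NEAT1 was also called in the RBM33 set. It stood at 91.0, 78.6 and 84.2 CPM in the scramble libraries, 120 and 108 CPM in those labelled shRNA-1, and 125, 160 and 139 CPM in those labelled shRNA-2. All 5 lay above the 3 scramble libraries. NEAT1 rose by 0.58 ± 0.10 SE on the log2 scale (limma adjusted p = 0.00016), with 0.42 ± 0.12 SE for shRNA-1 (adjusted p = 0.022) and 0.73 ± 0.11 SE for shRNA-2 (adjusted p = 4.9e-05). With the trend of the values with gene length removed the joint rise was 0.37 (adjusted p = 0.0058) and that of shRNA-1 did not pass (0.22, adjusted p = 0.24). The shRNA-1 call was also lost without a mean-variance trend (adjusted p = 0.12) and without any 1 of 4 libraries, RBM33 Scramble replicates 2 and 3 and both labelled shRNA-1 (adjusted p from 0.051 to 0.20).

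Of 18 genes of paraspeckle proteins, 9 rose and 1 fell with ALKBH5 shRNAs, and 9 rose and none fell in the RBM33 set. The shares of all genes were 7.93% higher and 7.18% lower, and 8.5% higher and 9.25% lower. SFPQ, which together with NONO coats NEAT1 and is needed for its stability, rose by 0.82 ± 0.07 SE on the log2 scale with ALKBH5 shRNAs (limma adjusted p = 7.8e-09) and by 1.12 ± 0.06 SE in the RBM33 set (adjusted p = 9.1e-12). PSPC1, its relative, rose by 0.85 ± 0.08 SE (adjusted p = 2.1e-07) and 0.75 ± 0.08 SE (adjusted p = 5e-07). TAF15, an RNA-binding protein, fell by 0.51 with ALKBH5 shRNAs (SE 0.10, adjusted p = 0.0018). The list's median was 0.13 and 0.18 in the 2 sets, beside 0.01 and −0.01 over all genes.

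Of 11 genes of MALAT1-binding and nuclear speckle proteins, 5 rose with ALKBH5 shRNAs, and 9 rose and 1 fell in the RBM33 set. In the first comparison 7.93% of all genes rose, and in the second 8.5% rose and 9.25% fell. U2AF2, which recognises the polypyrimidine tract at introns, rose by 0.72 ± 0.07 SE on the log2 scale (limma adjusted p = 2.3e-07) and 0.78 ± 0.07 SE (adjusted p = 1.7e-08). SRSF2, a speckle splicing factor, rose by 0.56 ± 0.09 SE (adjusted p = 0.00029) and 0.56 ± 0.09 SE (adjusted p = 0.00012). SON, which builds the core of speckles, rose by 0.48 ± 0.06 SE in the RBM33 set (adjusted p = 4.4e-06). HNRNPC, which binds an m6A-dependent structure in MALAT1, fell there by 0.17 (SE 0.06, adjusted p = 0.047).

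Counted over the 8 RNAs, 4 rose and none fell with ALKBH5 shRNAs, namely RN7SK, RN7SL1, RN7SL2 and NEAT1. Over all 18227 genes tested, 15.1% were called in that comparison, 7.93% as higher and 7.18% as lower. In the RBM33 set 1 rose, NEAT1, and 4 fell, RN7SK, TERC, RMRP and RPPH1, where 17.7% of all genes were called, 8.5% as higher and 9.25% as lower. The libraries of the 2 groups did not overlap for 5 of the 8 RNAs in each set, beside 12.3% of all genes that were wholly higher and 11.9% wholly lower with ALKBH5 shRNAs, and 10.8% and 11.6% in the RBM33 set. The median log2 difference of the 6 small RNAs was 0.41 with ALKBH5 shRNAs and −0.38 in the RBM33 set, beside 0.01 and −0.01 over all genes. With libraries scaled to the same median, the 1549 genes called higher and 1686 called lower in the RBM33 set became 1872 and 1275.

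Whether the 2 sets differed was tested as the difference between their log2 changes. It was called for RN7SK, RN7SL1, RN7SL2, TERC and RPPH1, 5 of the 6 small RNAs, all more positive in the ALKBH5 set, where 2.69% of all genes were called and 2.01% in that direction. DESeq2 split its 721 calls into 463 and 258, where limma gave 366 and 125. It did not pass for RMRP (0.33 ± 0.12 SE, limma adjusted p = 0.17), MALAT1 (−0.20 ± 0.11 SE, adjusted p = 0.40) or NEAT1 (−0.22 ± 0.14 SE, adjusted p = 0.48). Without a mean-variance trend, and likewise with the trend of the values with gene length removed, 2 of the 8 were called, RN7SK and TERC.

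The 2 control groups themselves differed in these RNAs. All 6 were lower in ALKBH5 Scramble than in RBM33 Scramble with no overlap between libraries, and all 6 were called, where 2.48% of all genes were called and 2.21% were called lower; 11.9% of all genes were wholly lower without overlap. DESeq2 called 134 genes higher and 487 lower there, where limma called 49 and 403. The log2 difference was −1.07 ± 0.14 SE for RN7SL1 (limma adjusted p = 5.2e-05), −0.91 ± 0.11 SE for RN7SK (2.3e-05), −0.74 ± 0.10 SE for TERC (0.00011) and −0.64 ± 0.10 SE for RN7SL2 (0.00049). RPPH1 differed by −0.60 ± 0.11 SE (adjusted p = 0.002) and RMRP by −0.38 ± 0.09 SE (adjusted p = 0.029). MALAT1 (0.20 ± 0.08 SE, adjusted p = 0.28) and NEAT1 (0.36 ± 0.11 SE, adjusted p = 0.071) did not pass by limma and were on the other side of 0. Their libraries did not overlap either, and all were higher in ALKBH5 Scramble. The share of all genes wholly higher there is not given, so this separation is not read as a difference. DESeq2 on the recovered reads called both (adjusted p = 0.015 and 0.024), and NEAT1 also passed with only the groups compared in the fit (adjusted p = 0.014). For RMRP the call was lost without any 1 of 5 libraries, ALKBH5 Scramble replicates 2 and 3 and all 3 of RBM33 Scramble, with adjusted p from 0.064 to 0.18. Without a mean-variance trend 3 of the 6 were called, and RN7SL2 (adjusted p = 0.059), RPPH1 (0.12) and RMRP (0.23) were not.

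The change of the small RNAs in each set is thus measured against controls that were unlike in these same RNAs. Set directly against each other, the ALKBH5 shRNA libraries and those labelled RBM33 shRNA gave 0 calls among the 8 RNAs by limma, where 0.302% of all genes were called, although 2 of the 8 had an unadjusted p under 0.05. RN7SK was nearest, at 0.39 ± 0.09 SE (limma adjusted p = 0.063), and was the 1 call on the recovered whole reads by edgeR (adjusted p = 0.048) and by DESeq2 (adjusted p = 0.03). For the other 7 the 95% intervals ran from −0.50 to 0.32 at the widest ends. The 2 sets share neither target nor control, so this comparison also holds whatever else differed between the 2 sets, and these parts cannot be told apart.

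**Figure D2:**
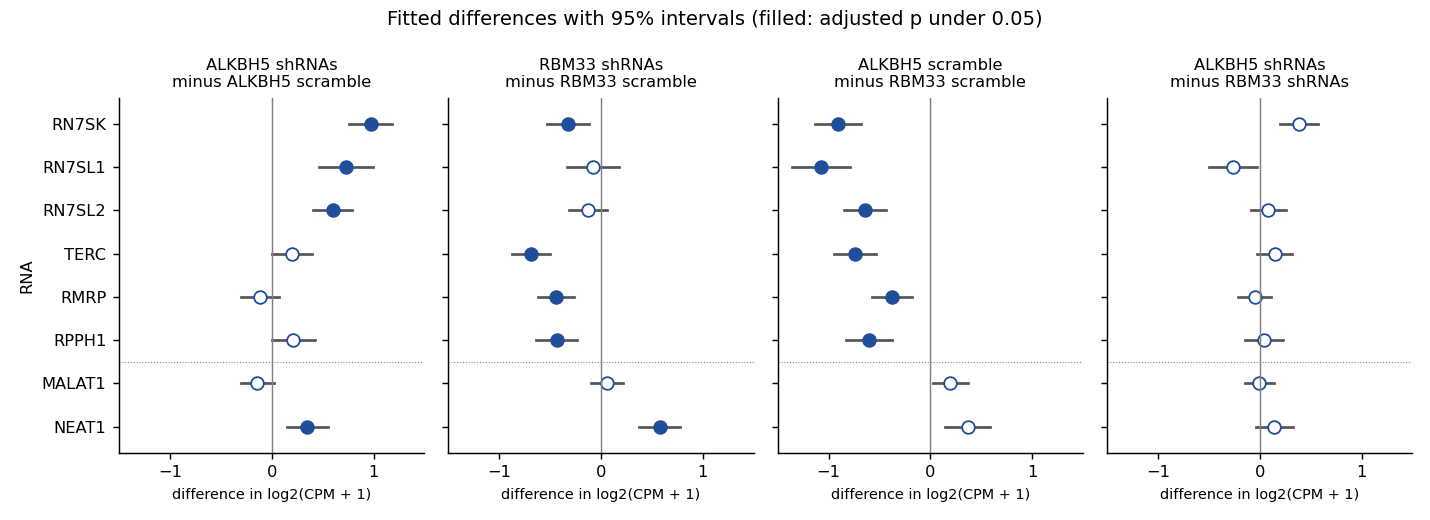
Fitted difference in log2(CPM + 1) (horizontal axis) for each of the 8 RNAs (vertical axis) in 4 comparisons, with 95% intervals as lines and filled points for adjusted p under 0.05. The 6 small RNAs (above the dotted line) lie left of 0 between the 2 scramble groups, and no RNA was called between the shRNA libraries of the 2 sets.

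The share of the listed signal shows the same order by library. The 6 small RNAs took 1.64%, 1.79% and 1.93% of the summed CPM of listed genes in ALKBH5 Scramble and 2.48% to 3.33% in each of the other 12 libraries. MALAT1 and NEAT1 together took 0.601% to 0.815%, highest in ALKBH5 Scramble replicate 2 and lowest in RBM33 Scramble replicate 2. RN7SL1, RN7SL2 and RN7SK carry most of this sum. For TERC, RMRP and RPPH1 the ALKBH5 Scramble libraries overlapped the shRNA libraries of both sets, and the RBM33 Scramble group had the highest mean. The results of each set rest on its own scramble libraries. CPM are scaled within each library, so a larger part for one RNA can leave less for the others. The summed CPM was not fixed, at 954042 to 992833 in ALKBH5 Scramble and 1045915 to 1050515 in RBM33 Scramble.

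**Figure D3:**
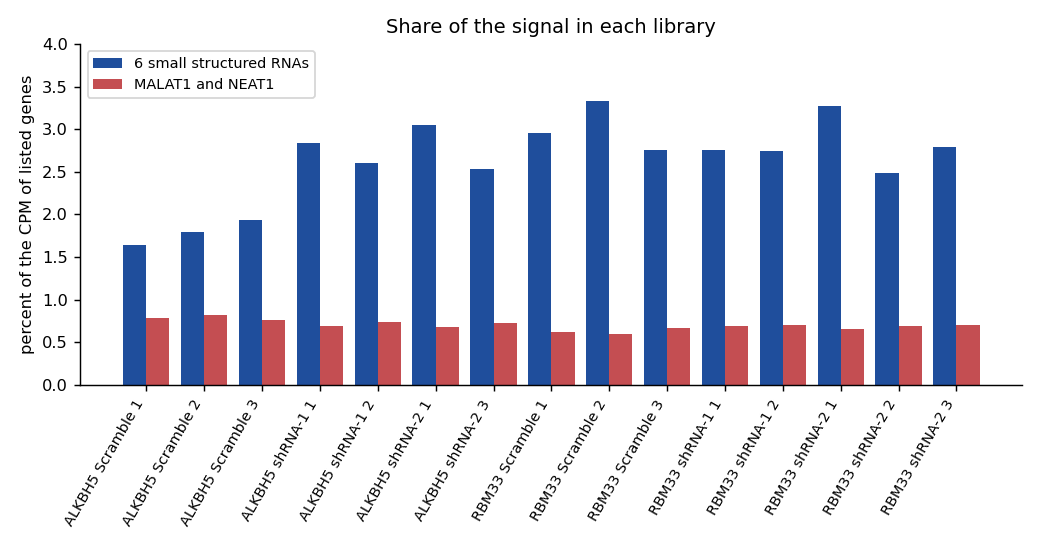
Percent of the summed CPM of listed genes (vertical axis, from 0) taken by the 6 small structured RNAs (blue bars) and by MALAT1 and NEAT1 (red bars) in each of the 15 libraries (horizontal axis). The 3 ALKBH5 Scramble libraries hold 1.64% to 1.93% in the small RNAs, below the other 12.

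Across the 15 libraries the RNAs fell into levels that went together to different degrees, given here as Pearson correlations of log2(CPM + 1), which share depth, scaling and group. RN7SK and RN7SL2 had r = 0.88, and RN7SL1 and RN7SL2 had r = 0.86. Among the small RNAs, RMRP went most with RPPH1 (r = 0.76) and least with RN7SL1 (r = 0.13). MALAT1 ran against RN7SL1 (r = −0.86) and NEAT1 against RMRP (r = −0.79), while MALAT1 and NEAT1 were unrelated over these libraries (r = 0.02).

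The m6A data came as tables of peaks with an effect and a p, made by the authors for each shRNA against its scramble. In the authors' deposited tables of effects, whose values are natural logs of a ratio and at least 0.50 in size, 9 peaks lay on MALAT1, 10 on NEAT1 and none on the 6 small RNAs. A peak enters such a table only where the 2 groups differ, so a gene with no listed peak may still carry m6A. Assigning peaks by position in place of name gave the same number in each of these tables. The 2 tables of a set share their scramble libraries, so their values are set side by side here and not counted as separate support.

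MALAT1 peaks were listed with ALKBH5 shRNAs only, 3 with shRNA-1 and 6 with shRNA-2, and 8 of the 9 were lower than in scramble. Over all peaks of the same authors' deposited tables, 64.7% of 13120 and 72.5% of 19251 were higher. The 6 of shRNA-2 were all lower, with effects from −1.16 to −0.57 in the authors' deposited table. Among them was a 300-base peak at chr11:65502712-65503011, 5025 to 5324 bases from the gene start, with an effect of −0.73 and p = 6.6e-15 in the authors' deposited table. The lowest effect, −1.16 (p = 0.002), belonged in the authors' deposited table to a peak 7575 to 7624 bases from the start. With shRNA-1 the authors' deposited table held 2 lower peaks, at 1425 to 1524 bases (effect −0.80, p = 3.9e-06) and at 1775 to 1824 bases (effect −0.50, p = 0.0038). The first of these overlapped a lower peak of shRNA-2 at 1375 to 1474 bases (effect −0.95, p = 2.8e-05 in the authors' deposited table) by 50 bases.

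The one higher MALAT1 peak, chr11:65499012-65499061 with an effect of 1.98 (7.24-fold, p = 0.0014) in the authors' deposited table for shRNA-1, ends where the lower peak of shRNA-2 begins. It lies 1325 to 1374 bases from the start of the gene as listed, and from base −33 to base 17 of a second RefSeq start. It is shown in capitals within the 300 bases of the RefSeq window (GRCh38.p14) chr11:65498795-65499094, plus strand, because it is the only higher peak listed for MALAT1. It was listed with shRNA-1 and not with shRNA-2.
MALAT1 second start: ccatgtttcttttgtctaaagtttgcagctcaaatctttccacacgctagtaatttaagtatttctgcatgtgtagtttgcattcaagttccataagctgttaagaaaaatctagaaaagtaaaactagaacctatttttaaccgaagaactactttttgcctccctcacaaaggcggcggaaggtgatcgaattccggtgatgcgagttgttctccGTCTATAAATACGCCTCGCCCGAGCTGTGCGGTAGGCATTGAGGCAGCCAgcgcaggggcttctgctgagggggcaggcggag
The peak holds TATAAA from its base 4, as do 3.35% of 35116 RefSeq promoter windows in the same 50 bases on either strand. GGACT, a common form of the m6A motif, is not in the peak on either strand and is in 9.01% of the windows over those bases.

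NEAT1 had listed peaks with all 4 shRNAs: 2 and 4 with ALKBH5 shRNA-1 and shRNA-2, and 2 with each labelled RBM33 shRNA. Of these 10 listings, 9 were higher than in scramble. All lay between 275 and 1774 bases from the gene start, within the part that the short and the long form share. Some stretches were listed in both tables of a set, which share scramble libraries, so the 10 are not separate results. Of all peaks in the RBM33 tables, 87.6% of 2070 and 87.5% of 3268 were higher, so the direction of NEAT1 was that of most listed peaks. The highest effects in the authors' deposited tables for RBM33 belonged to 1 stretch of 50 bases, chr11:65423448-65423497, at 3.04 (21.0-fold, p = 1.2e-06) for shRNA-1 and 3.01 (20.3-fold, p = 1.2e-06) for shRNA-2. By effect, they ranked 44th among the 2070 and 67th among the 3268 peaks. The highest with ALKBH5 shRNAs also lay on 1 stretch, chr11:65423698-65423747, at 2.62 (13.8-fold, p = 0.00066) for shRNA-1 and 2.90 (18.2-fold, p = 2.8e-05) for shRNA-2 in the authors' deposited tables.

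Between the sets, which do not share libraries, 1 NEAT1 stretch was listed in both. The ALKBH5 shRNA-2 peak at 275 to 374 bases from the start (effect 1.35, p = 1.5e-07) overlapped the RBM33 peaks at 325 to 424 bases (effect 1.55, p = 3e-06) and 325 to 374 bases (effect 1.32, p = 9.1e-05) by 50 bases in the authors' deposited tables. Another ALKBH5 shRNA-2 peak, at 625 to 674 bases (effect 1.83, p = 0.00022 in the authors' deposited table), ended at the base before the strongest RBM33 stretch. The 1 lower NEAT1 peak lay at 1575 to 1624 bases with ALKBH5 shRNA-2 (effect −0.86, p = 0.00015 in the authors' deposited table). By limma, NEAT1 RNA rose in both sets and MALAT1 RNA passed in neither. In the authors' deposited DESeq2 tables MALAT1 was called lower with both ALKBH5 shRNAs and NEAT1 with neither. DESeq2 on the recovered reads, in contrast, called NEAT1 with ALKBH5 shRNA-1 (adjusted p = 0.027). MALAT1 passed in the joint ALKBH5 comparison under none of the 12 other settings. Which RNA changed beside its peaks in the ALKBH5 set therefore depends on the tool and on the counts it was run on. The sources used here do not say whether the effects are corrected for the RNA level.

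**Figure D4:**
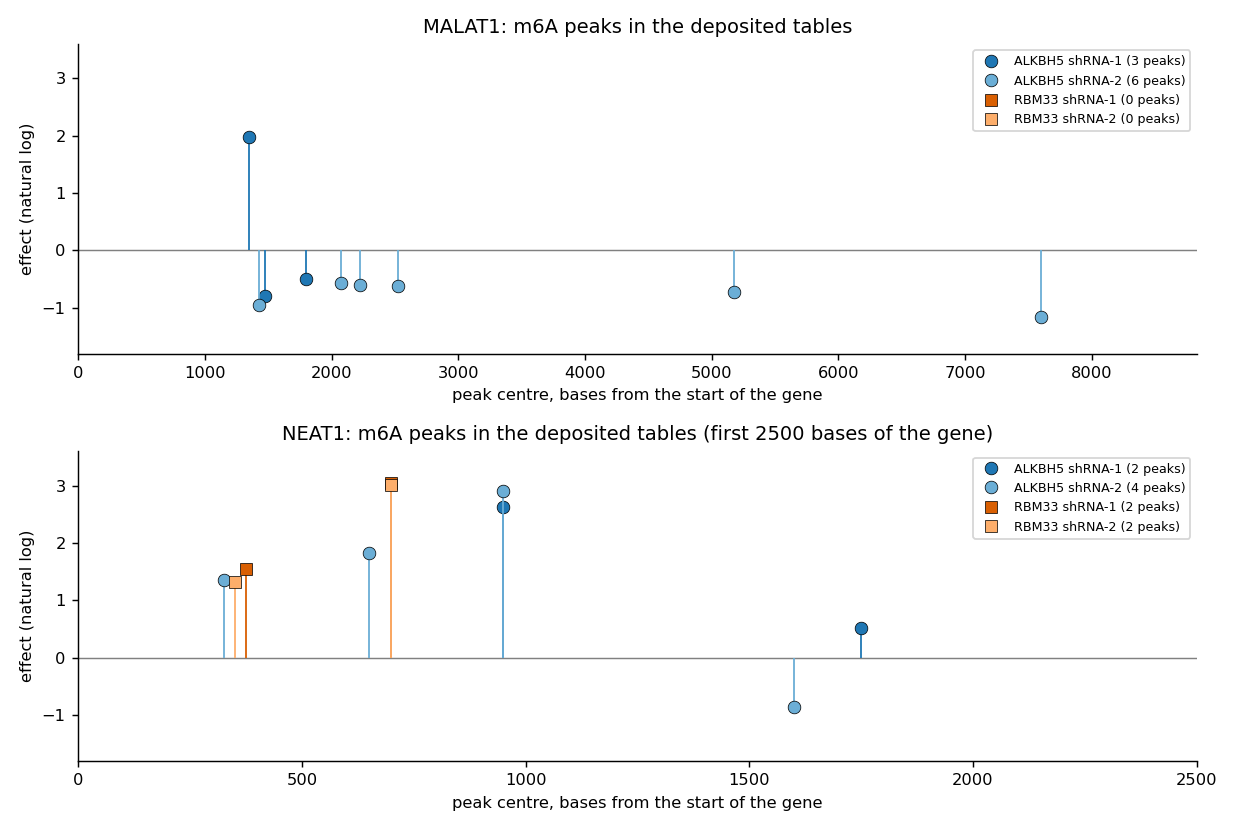
Effect of each listed m6A peak (natural log of shRNA over scramble, vertical axis) against its centre in bases from the gene start (horizontal axis) on MALAT1 and on the first part of NEAT1, coloured by comparison from the authors' deposited tables. On MALAT1 8 of 9 peaks lie below 0, all with ALKBH5 shRNAs, and on NEAT1 9 of 10 lie above 0, in all 4 comparisons.

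A second kind of table gave the fraction of m6A at a peak in both groups. Of 721 peaks with a position in the authors' deposited table of fractions for ALKBH5 shRNA-1, 1 lay on one of the 8 RNAs, and it was on RN7SK. This peak, chr6:52995770-52995819, covers bases 150 to 199 of 7SK RNA. In the authors' deposited table its m6A fraction was 7.79% in scramble and 1.89% with ALKBH5 shRNA-1 (log2 effect −2.13, p = 0.0067, adjusted p = 0.075), beside an RNA level 1.89-fold higher with the same shRNA. Of all peaks listed there, 67.7% were higher. The tables of fractions for ALKBH5 shRNA-2 (182 peaks with a position), RBM33 shRNA-1 (20) and RBM33 shRNA-2 (18) listed no peak on the 8 RNAs.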

How the data were processed

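RNA-seq libraries of total RNA and m6A-seq libraries were made from UM-SCC-1 cells with a stranded total RNA kit, per the labels' protocols. Reads were processed with cutadapt 1.18, HISAT2 2.1.0 on hg38, featureCounts (Subread 1.6.4) and edgeR 3.24.3, per the submitters' processing notes. The authors deposited the RNA values as CPM, a signal per gene with their own scaling, so that the listed genes of a library sum to 954042 to 1050515. Low values were whole multiples of what 1 read is worth (100% of values whole within 0.1 read in every library). edgeR's quasi-likelihood test on those recovered counts called 2808 genes in the ALKBH5 set and 3245 in the RBM33 set. The authors' deposited tables of comparisons give log2 changes with a p-value and a score (an F or Wald statistic, not printed) from edgeR or DESeq2 and, for m6A, natural log effects or the m6A fraction per peak with a log2 odds ratio. Between 4.67% and 7.41% of the m6A effects in the deposited tables were natural logs of multiples of 0.5 (within 1e-06), and 0% were so on the log2 scale. The sources used here do not give the peak caller, and their values are the authors'.

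Of 21797 genes, the 18227 whose mean reached 1 CPM were tested with limma 3.58.1 (R 4.3.3) on log2(CPM + 1), with a mean-variance trend, 6 group means in 1 fit (9 residual degrees of freedom) and Benjamini-Hochberg adjustment over all genes tested, at 0.05. "ALKBH5 shRNAs" is the mean of both shRNA groups. A fold change on this scale understates the change of low genes. On simulated data for the ALKBH5 comparison with 18227 genes, 99% of 100 genes changed 2-fold and 70% of 100 changed 1.5-fold were recovered. The simulation gave all genes the same dispersion and changed no genes of the lowest levels. It therefore does not show the recovery where the spread differs between genes. Replicates differed by more than sampling noise (chi-square per degree of freedom 3.03 to 9.09). The depth limits NEAT1 and TERC most, and a floor of 3 reads was 0.43 to 0.66 CPM, for counting error only.

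The members and gene lists were chosen with earlier results of these data known. Named are the 8 RNAs and, of each list, up to 3 called genes per direction and set with the largest absolute change, and the 3 genes whose level correlated most with each of the 8. A gene that this rule names is not reported here. Alternatives were other pseudocounts, filters, scalings, no trend, a gene length correction, fits of single comparisons, a replicate block, edgeR 4.0.16 and DESeq2 1.42.0 on recovered counts, each library left out, and stricter thresholds and overlaps for peaks. Sequences are from RefSeq promoter windows (GRCh38.p14). Of the 8 RNAs, MALAT1 has windows of its own, and that of PARP2 reaches RPPH1.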

Additional observations from a re-analysis of the deposited data

Results flagged for a closer look

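The change with ALKBH5 shRNAs and the change in libraries labelled RBM33 shRNA differed, by the limma test of the difference itself, for 5 of the 8 RNAs. For RN7SK this log2 difference was 1.30 (SE 0.14, limma adjusted p = 6.5e-06): all 4 ALKBH5 shRNA libraries were above their scramble libraries and all 5 labelled RBM33 shRNA were below theirs. For TERC it was 0.89 (SE 0.13, adjusted p = 0.00034), from changes of 0.20 and −0.69. RN7SL1 gave 0.81 (SE 0.18, adjusted p = 0.012), from 0.73 and −0.08, and this call was lost without RBM33 Scramble replicate 2 (0.67, adjusted p = 0.062). RN7SL2 gave 0.73 (SE 0.13, adjusted p = 0.0022), from 0.60 and −0.13. RPPH1 gave 0.64 (SE 0.14, adjusted p = 0.012), from 0.21 and −0.43. Without a mean-variance trend, and with the trend of the values with gene length removed, the calls for RN7SL2 (adjusted p = 0.096 and 0.064), RPPH1 (0.17 and 0.097) and RN7SL1 (0.14 and 0.13) were lost. The same 5 RNAs were lower in ALKBH5 Scramble than in RBM33 Scramble by 0.60 to 1.07 on the log2 scale. Each difference above equals that between the shRNA libraries of the 2 sets minus that between the scrambles. Between the shRNA libraries it was 0.39 for RN7SK, 0.15 for TERC, −0.26 for RN7SL1, 0.08 for RN7SL2 and 0.04 for RPPH1. None of these was called by limma. For all 5 RNAs the part between the scrambles was thus the larger. Why the controls were unlike was not tested.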

How the results depend on the processing

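Over 12 other settings, 568 of 612 values of single RNAs kept their direction and their side of the threshold, 29 lost the call, 13 gained it and 2 changed sign. With 1 of the 15 libraries left out, 723 of 765 did so, 29 lost the call, 12 gained it and 1 changed sign. Many of these 765 values leave out a library that takes no part in the comparison. There the difference cannot move and only the estimate of the spread can. The count therefore does not measure how far a call rests on single libraries. Losses by single library are given above for some calls and not for all. The sign changes were all in the RBM33 set: with the trend of the values with gene length removed RN7SL1 stood at 0.10 and RN7SL2 at 0.049, and with single libraries left out RN7SL1 ranged from −0.22 to 0.06, positive without RBM33 Scramble replicate 2.

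Among the 12 settings that keep all libraries, leaving out the mean-variance trend lowered each count of genes called furthest. The genes called fell to 1724 in the ALKBH5 set, 38 in the difference between sets, 37 between scrambles, 677 and 757 for the single ALKBH5 shRNAs, 1096 for RBM33 shRNA-1 and 0 between the shRNA libraries of the sets (55 with the trend; 27 with only these groups in the fit, 205 by DESeq2). The number of the 8 RNAs called became 3 in the RBM33 set, 2 in the difference, 3 between scrambles, 2 for ALKBH5 shRNA-2 and 1 for RBM33 shRNA-1. With the gene length trend removed, 323 genes and 2 of the 8 RNAs were called in the difference, 3 of the 8 in the RBM33 set and 1 for RBM33 shRNA-1. Between the shRNA libraries of the sets edgeR and DESeq2 called 1 of the 8 each. Scaling to the same median moved the split to 1218 higher and 745 lower for RBM33 shRNA-1 (1024 and 961 as deposited) and to 1479 and 1019 for RBM33 shRNA-2 (1174 and 1325). The cause of these shifts was not tested.

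With 1 library left out, which also leaves fewer samples to estimate the spread, the genes called ranged from 1710 (without ALKBH5 Scramble replicate 1) to 2858 in the ALKBH5 set, 2062 (without RBM33 Scramble replicate 2) to 3262 in the RBM33 set, 266 to 579 in the difference and 241 to 509 between scrambles. They ranged from 541 to 1652 and 592 to 1966 for ALKBH5 shRNA-1 and shRNA-2, 953 to 2133 for RBM33 shRNA-1 and 3 to 99 between the shRNA libraries. The number of the 8 RNAs called ranged from 2 to 5 for ALKBH5 shRNA-2, 1 to 4 for RBM33 shRNA-1 and 0 to 1 between the shRNA libraries. A lone library left in a group is assumed to vary like the other groups.

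Replicate numbers are shared by the groups, but the labels give them no meaning. Deviations from the group means correlated by −0.076 to 0.074 in the 12 same-numbered pairs, and 0 of them passed 0.1. With the number as a replicate block, 2473 genes were called in the ALKBH5 set, 3046 in the RBM33 set and 24 between the shRNA libraries, and RMRP was no longer called between scrambles (adjusted p = 0.051).

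At an absolute m6A effect of at least 1, 2 of 5 peaks remained for ALKBH5 shRNA-1 and 4 of 10 for shRNA-2, with 1 of the 8 lower MALAT1 peaks and 0 of 1 lower NEAT1 peaks. At an adjusted p under 0.01 the RN7SK peak was not listed (0 peaks). The m6A peaks carry no replicate spread, since values per library were not used.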

Other observations

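Other small structured RNAs, listed to set beside the 8, were called in both directions. Of 34 tested, 7 rose and 1 fell with ALKBH5 shRNAs, and 1 rose and 13 fell in the RBM33 set, beside 7.93% and 7.18%, and 8.5% and 9.25%, of all genes. Their median log2 difference was −0.02 and −0.38 in the 2 sets, and −0.46 between the scrambles, where 8 were lower and none higher. The Y RNAs RNY1 (−1.44 ± 0.22 SE, limma adjusted p = 6.1e-05), RNY3 (−1.79 ± 0.27 SE, 4.9e-05) and RNY4 (−1.91 ± 0.40 SE, 0.0016), partners of the Ro protein, fell in the RBM33 set. SCARNA5 and SCARNA12, guide RNAs of Cajal bodies, rose by 0.83 ± 0.10 SE (5.2e-06) and 0.79 ± 0.10 SE (1.6e-05) with ALKBH5 shRNAs. RNU6-1, a gene of the spliceosomal U6 RNA, rose in both sets, by 2.82 ± 0.22 SE (4.2e-09) and 1.42 ± 0.21 SE (3.4e-05), and RNU2-2P fell by 0.84 with ALKBH5 shRNAs (SE 0.26, 0.033).

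Of 33 genes of RNA polymerase III and its factors, 5 rose with ALKBH5 shRNAs, and 5 rose and 4 fell in the RBM33 set, where 15.1% and 17.7% of all genes were called. SNAPC4, the largest subunit of the complex that binds the upstream element of genes such as RN7SK and RPPH1, rose by 0.58 ± 0.12 SE (limma adjusted p = 0.0024) and 0.79 ± 0.12 SE (adjusted p = 4.5e-05). SNAPC2 of the same complex fell by 1.07 in the RBM33 set (SE 0.26, adjusted p = 0.0056), and so did MAF1, the general repressor of the polymerase, by 0.71 (SE 0.10, adjusted p = 4.4e-05). With ALKBH5 shRNAs POLR1C, a shared subunit, rose by 0.57 ± 0.13 SE (adjusted p = 0.004) and SNAPC5 by 0.57 ± 0.19 SE (adjusted p = 0.04). In the RBM33 set GTF3C1 rose by 0.57 ± 0.07 SE (adjusted p = 3.4e-06), BDP1 rose by 0.43 ± 0.07 SE (adjusted p = 9.2e-05) and GTF3A, the 5S factor, fell by 0.43 (SE 0.10, adjusted p = 0.0033). Of 17 genes of the nuclear exosome, which trims and degrades noncoding RNA, 1 rose with ALKBH5 shRNAs, EXOSC6 (0.73 ± 0.13 SE, adjusted p = 0.00044), and 4 rose in the RBM33 set, among them ZFC3H1 (0.36 ± 0.08 SE, adjusted p = 0.0023), EXOSC6 (0.37 ± 0.12 SE, adjusted p = 0.039) and EXOSC10 (0.26 ± 0.07 SE, adjusted p = 0.014).

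Of 16 other long noncoding RNAs tested, 4 rose and 2 fell with ALKBH5 shRNAs, and 7 rose and 3 fell in the RBM33 set. The shares over all genes were 7.93% and 7.18%, and 8.5% and 9.25%. OIP5-AS1 fell in both, by 0.63 (SE 0.10, limma adjusted p = 0.00014) and 0.38 (SE 0.10, adjusted p = 0.0075), and so did HOTAIRM1, by 0.72 (SE 0.21, adjusted p = 0.022) and 0.74 (SE 0.20, adjusted p = 0.013). MIR17HG rose by 0.50 ± 0.10 SE (adjusted p = 0.0016) with ALKBH5 shRNAs, CYTOR by 0.66 ± 0.13 SE (adjusted p = 0.00087) and TUG1 by 0.41 ± 0.08 SE (adjusted p = 0.00065) in the RBM33 set.

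The genes whose level over the 15 libraries was most like that of each RNA are given as Pearson correlations, which share depth, scaling and group. RN7SK was nearest to its pseudogene RN7SKP71 (r = 0.968), whose reads may be its own, then to RPL27 (0.960) and CCT7 (0.959). RN7SL2 was nearest to SCARNA5 (0.941), RN7SL1 to the pseudogene AC012085.1 (0.897), RMRP to SNHG8 (0.949) and TERC to SSNA1 (0.898). RPPH1 was nearest to the histone gene H3C14 (0.934) and next but one to H3C15 (0.929). MALAT1 was nearest to PNISR (0.920), and NEAT1 to GABPB1-AS1 (0.910) and NF2 (0.908).

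Of 17 tested pseudogenes of 7SL, 2 rose with ALKBH5 shRNAs and 1 fell in the RBM33 set. Of 9 of 7SK, 2 rose and 2 fell in the same 2 comparisons. Among all genes, 7.93% rose in the first comparison and 9.25% fell in the second. In the authors' deposited tables of DESeq2 results MALAT1 was called lower with both ALKBH5 shRNAs (log2 −0.23, adjusted p = 0.011, and −0.25, adjusted p = 0.004), where the authors' deposited edgeR tables gave −0.13 (adjusted p = 0.31) and −0.15 (adjusted p = 0.25). NEAT1 was the reverse for those shRNAs, with an adjusted p of 0.71 and 0.76 in the authors' deposited DESeq2 tables and of 0.023 and 0.032 in the authors' deposited edgeR tables.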
